A study of Mus musculus with 6 samples.

Results

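Short retained introns are introns of at most 250 bases that a splicing array follows in 2 forms, the form from which the intron has been spliced out and the form that still holds it. They were taken from the deposited event table as the distinct events typed as retained introns whose listed span, end minus start, was at most 250 bases. There were 447 of them in 385 genes, among 1071 retained introns and 13002 event names in all. The arrays compared brains of mice of the B6.CAST congenic line that were homozygous for either of the alleles of *Nxf1*, the main nuclear export receptor for mRNA. The animals were 3 *Nxf1* CAST and 3 *Nxf1* B6 mice, used as 3 same-sex littermate pairs with 1 array per animal. Pair 1 was female and 46 days old, pair 2 was male with the B6 animal at 22 and the CAST animal at 23 days, and pair 3 was female and 23 days old. No treatment was given. The congenic animals carry CAST sequence at *Nxf1* and at the genes linked to it on chromosome 19, so effects of *Nxf1* and of those neighbours cannot be told apart by these groups.

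Splicing removes introns from a pre-mRNA, and a transcript in which an intron is left in is usually held in the nucleus or destroyed after a premature stop codon is read in it. In some genes the retained form encodes an alternative protein end or serves as a store of unfinished RNA, and neurons are known to use such stores. Mammalian introns are mostly far longer than these, and very short ones are recognised as a unit between their splice sites rather than across the flanking exons. Retention also matters for export, since NXF1 is recruited to mRNA in part through splicing.

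The event table gives for each path 1 pooled intensity for a set of arrays called A here and 1 for a set called B, with no value per animal. The sets carry no genotype names. The order of the table's columns and the formula printed with them, mutant over wild type, make set B likely the *Nxf1* CAST animals, and the comparisons below are written as set B against set A. Change means log2(exclusion/inclusion intensity) in set B minus the same in set A, where exclusion is the spliced path and inclusion the retained path. A change above 0 is thus relatively more spliced signal in set B. There is no replicate spread for any of these values, so it could not be assessed whether a difference exceeded the differences between animals, and no test was made. Events with an absolute change over 0.5, a ratio moved by over 1.41-fold, are called past the fold. In bulk brain, fewer cells of a type and less RNA per cell cannot be told apart.

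Listed intensities ran from 43 to 13185 with a median of 296. Markers of neurons and oligodendrocytes were bright. The brightest path of 7 neuronal markers lay between 2675 and 12087, and that of 4 oligodendrocyte markers between 1376 and 11314. That of 4 astrocyte markers ran from 416 to 10330. Other markers were dimmer: 258 and 459 for 2 of microglia, 405 and 712 for 2 of endothelium, 298 for 1 of choroid plexus and 218 for 1 of blood. The mean of the 2 path shifts from set A to set B ran from -0.21 to 0.29 on the log2 scale over the neuronal markers. The same mean was -0.09 and 0.14 for the 2 dimmer microglial markers. The part of such shifts in the results was not tested.

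The listed introns were 51 to 248 bases long with a median of 115 bases. The table's own number for the intron was 2 less than its listed span for 434 of 447. An intron whose length is a multiple of 3 leaves the reading frame after it unshifted, and 131 of 447 (29.3%) had such a length, against 204 of 624 longer retained introns (32.7%). Of the 447 introns, 416 lay in genes that RefSeq calls protein coding, 12 in long noncoding RNA genes and 19 in genes not matched by symbol. Without intensities were 3 introns, in *Ilvbl* (174 bases), *Fbxl6* (81 bases) and *Egfl8* (88 bases), which left 444 for the comparison. Among the 444, spliced-path intensities in set A ran from 54 to 10671 with a median of 311.5, and retained-path intensities from 57 to 3104 with a median of 277.5.

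The positions are given as the table lists them. Its genome build is not given in the sources used here, and only 27 of 428 introns matched by symbol lay inside the span of their gene in GRCm38, so intron sequences were not read by coordinates. RefSeq does hold microRNA hairpin sequences from some of the same genes, and whether any of them is an intron was not tested. Some microRNA hairpins are whole or partial short introns, called mirtrons, and then share the intron's end. On the same strand within 18 of the genes lay 19 hairpins, and 8 of the 19 ended in AG, the last bases of nearly every intron, against 23.7% of all 1005 mouse hairpins listed. Of the 8 that end in AG, 3 are shown for genes with clear signal, in lower case with the final AG in capitals.
*Rpl13*, Mir7079, GRCm38.p6 chr8:123104975-123105043, plus strand: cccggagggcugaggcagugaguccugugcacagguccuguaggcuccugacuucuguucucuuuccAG
*Actg1*, Mir6935, GRCm38.p6 chr11:120347350-120347413, minus strand: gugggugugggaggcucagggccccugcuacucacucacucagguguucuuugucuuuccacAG
*Map4k2*, Mir6989, GRCm38.p6 chr19:6346480-6346544, plus strand: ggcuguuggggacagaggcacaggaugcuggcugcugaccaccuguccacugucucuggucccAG
The listed introns of these genes are 194, 91 and 66 bases long. The 65-base hairpin in *Map4k2* is near the listed intron in length. That intron is listed at chr19:6341834-6341902, a position that cannot be set against that of the hairpin. Whether a hairpin lies in the listed intron was not tested, because the build of the listed positions is not known. The *Map4k2* intron, in a kinase of stress signalling, hardly moved: the spliced path read 1407 (set A) and 1354 (set B), the retained path 412 and 396. The *Actg1* intron, in the gene of cytoplasmic gamma-actin, had a change of -0.38, with the retained path at 291 and 369.

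Most short introns kept their ratio of spliced to retained signal between the sets, and the minority that did not moved in both directions. Past the fold were 45 of 444 (10.1%), 26 above 0 and 19 below 0, against a background of 7.24% of the 12556 events with values. By direction the background was 4.52% above 0 and 2.72% below 0, and the short introns stood at 5.86% and 4.28%. Of 621 longer retained introns with values, 60 (9.66%) were past the fold. The median absolute change was 0.22 for the short introns, 0.21 for the longer ones and 0.17 over all events. Dim introns, with at least 1 intensity under 160, the 25th percentile of the table, were 195 of the 444 short introns. Of the 45 past the fold 21 were among them. Over all events 5828 of 12556 were dim in this way, as were 523 of the 909 past the fold. Among the short introns only 1, in *Ccnd2*, had an absolute change over 1. With 200 units added to every intensity 9 remained past the fold, those in *Ccnd2*, *Solh*, *Slc7a6*, *Ampd2*, *Pde4d*, *Ankrd13b*, *Fbxl6* (247 bases), *Pcp2* and *Insl3*.

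Direction depended on where 0 was set. Of the 444 introns 49.3% had a change above 0 (exact Clopper-Pearson 95% interval 44.6% to 54.1%, which covers counting of introns only), against 61.0% of the longer introns and 55.3% of all events. The median of all events was 0.03. With that median subtracted, the split past the fold turned from 26 above and 19 below to 24 above and 29 below, and for all events from 567 and 342 to 449 and 437.

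Introns with more spliced signal in set B were led, among those with all 4 intensities at or above 160, by one in *Solh*, which encodes a calpain-family protein. For its 103-base intron (chr17:26097176-26097281) the spliced path went from 369 in set A to 678 in set B while the retained path read 383 and 371, a change of 0.92. The move was almost wholly in the spliced path. A cassette exon event of the gene that spans this intron (chr17:26096930-26097281) had a smaller change of 0.28. In *Slc7a6*, which encodes a transporter of cationic amino acids, the 197-base intron (chr8:108703187-108703386) had spliced intensities of 197 and 321 and retained intensities of 1087 and 942, a change of 0.91. Here the retained form stayed the brighter path in both sets. *Ampd2* encodes an AMP deaminase, and its 84-base intron (chr3:107889270-107889356) went from 687 to 1047 when spliced and from 270 to 220 when retained, a change of 0.90.

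*Pde4d*, the gene of a phosphodiesterase that degrades cyclic AMP, was the only gene among the 385 that the study also lists among genes with an intronic IAP, an endogenous retrovirus whose insertions *Nxf1* alleles are known to affect. Its 84-base intron (chr13:110693698-110693784) read 526 and 766 for the spliced path and 301 and 255 for the retained path, a change of 0.78. The listed intron is itself only 84 bases, and its position relative to the IAP was not examined. *Ankrd13b*, which encodes an ankyrin repeat protein that binds ubiquitin, had a change of 0.74 at its 120-base intron (chr11:77285681-77285803), with 510 and 678 spliced and 1026 and 819 retained. An event of complex type that spans this intron had a change of 0.14. *Fbxl6* encodes an F-box protein, the substrate-binding part of a ubiquitin ligase, and its 247-base intron (chr15:76368505-76368754) had 2115 and 2762 spliced and 336 and 274 retained, a change of 0.68.

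The rest of the 10 highest moved through one path or both. In *Rnf150*, a RING finger gene, the spliced path of the 223-base intron (chr8:85387791-85388016) went from 223 to 336 with the retained path at 988 and 941, a change of 0.66. In *Ccnt2*, which encodes a cyclin of the elongation factor P-TEFb, the 96-base intron (chr1:129699870-129699968) had 534 and 612 spliced and 276 and 206 retained, a change of 0.62. In *Tdrkh*, a tudor domain gene of the piRNA pathway, the values of the 164-base intron (chr3:94234573-94234739) were 750 and 930, and 220 and 180, a change of 0.60. In *Ccnt2*, 2 retained introns longer than 1000 bases also listed had changes of 0.08 and -0.03 beside the 0.62 of the short one.

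Introns with more retained signal in set B were led by one in *D330022A01Rik* (78 bases, chr9:107895627-107895707, change -0.76), whose retained path went from 177 to 260 as the spliced path went from 215 to 187. *Snph* encodes syntaphilin, which anchors mitochondria in axons. Its 199-base intron (chr2:151457990-151458191) had 269 and 205 spliced and 707 and 882 retained, a change of -0.71. *Pcp2* is a marker gene of cerebellar Purkinje cells, and its 151-base intron (chr8:3624632-3624785) had 1150 and 941 spliced and 351 and 468 retained, a change of -0.70. In these 3 introns both paths moved, in opposite directions.

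Also below 0 were introns of *Taf15*, *Parn* and *Brpf1*. *Taf15*, which encodes an RNA-binding protein, had the largest shift of the retained path among the 20, from 265 to 434, while its spliced path also went up, from 687 to 777. The change of this 118-base intron (chr11:83318212-83318332) was -0.53. *Parn*, the gene of a poly(A)-specific ribonuclease, had 308 and 256 spliced and 338 and 410 retained at its 81-base intron (chr16:13664810-13664934), a change of -0.55. *Brpf1*, which encodes a scaffold of a histone acetyltransferase complex, kept its spliced path at 239 and 232 while the retained path went from 238 to 334, a change of -0.53 at a 100-base intron (chr6:113271859-113271961).

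*ORF61* had a change of -0.57 at a 123-base intron (chr10:79440807-79440932), with 706 and 606 spliced and 382 and 488 retained. *Rgs19*, which encodes a regulator of G-protein signalling, had 203 and 172 spliced and 681 and 833 retained at a 79-base intron (chr2:181424000-181424081), a change of -0.53. *Gnptg*, the gene of a subunit of the enzyme that tags lysosomal proteins for delivery, had 978 and 782 spliced and 1400 and 1611 retained at a 65-base intron (chr17:25372733-25372800), a change of -0.53. The tenth lowest, in *Rusc1*, did not pass the fold at -0.48. Its spliced path read 2028 and 2060 and its retained path 300 and 426.

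**Figure D1:**
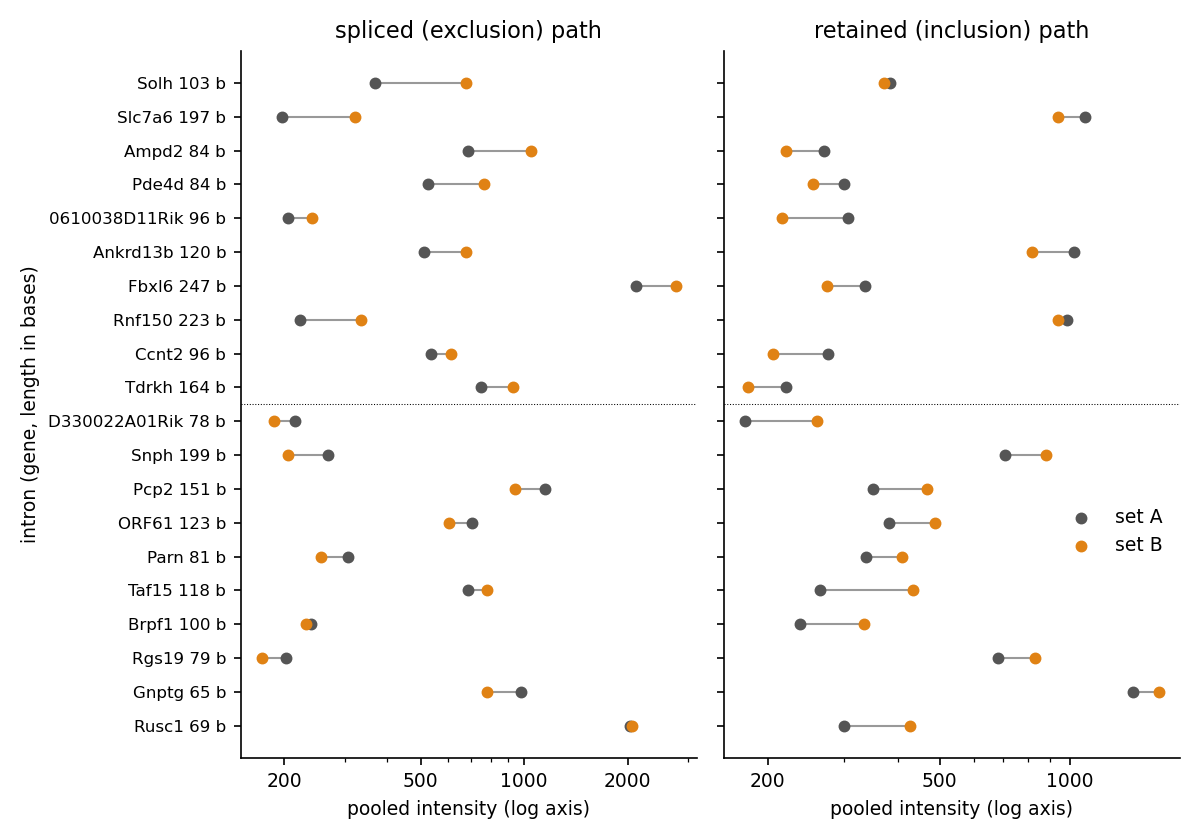
Pooled intensities (log axis) of the spliced path (left) and the retained path (right) in set A (grey) and set B (orange) for the 10 highest changes (above the dotted line) and the 10 lowest changes (below it) among short retained introns with all intensities at or above 160. In *Solh* it is mostly the spliced path that moves, from 369 to 678, and in *Brpf1* and *Rusc1* the retained path moves while the spliced path stays in place.

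Larger changes among dim introns rest on signals near the bottom of the scale. *Ccnd2*, the gene of cyclin D2, had the highest change of all, 1.25, at a 64-base intron (chr6:127100818-127100884), from spliced intensities of 131 and 211 and retained intensities of 130 and 88. *Fbxl15*, another F-box gene, followed at 0.98 (99 bases, chr19:46402791-46402892), with 279 and 387 spliced and 118 and 83 retained. In *Clcn4-2*, which encodes an exchanger of chloride and protons, the change of 0.65 came from a dim spliced path of 77 and 114 against a retained path of 1480 and 1396. *9930104L06Rik* and *1810034K20Rik* had changes of 0.66 and 0.65.

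Lowest of all was *Insl3*, the gene of a peptide hormone known from the testis, at -0.94 (83 bases, chr8:74204696-74204781). Its retained path was bright, 2395 and 2936, and its spliced path dim, 207 and 132. *Rpl31*, which encodes a protein of the large ribosomal subunit, had 526 and 340 spliced and 127 and 140 retained at a 233-base intron, a change of -0.77. *Prph*, the gene of the neuronal intermediate filament peripherin, had a change of -0.70 with 128 and 114 spliced and 226 and 326 retained. *Afmid* and *Fam108a* had changes of -0.66 and -0.60.

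Change is the shift of the spliced path minus that of the retained path, so a choice by change favours paths that move in opposite directions. For all events past the fold these directions were not counted. Of the 26 introns past the fold above 0, 24 had paths that moved in opposite directions, and in 19 the spliced path moved more. Of the 19 below 0, 17 had opposite paths, and the larger move was in the spliced path in 10 and in the retained path in 9. The exceptions above 0 were *Fbxw10*, with both paths brighter in set B, and *Snhg1*, with both dimmer. Below 0 they were *Taf15*, with both brighter, and *Klhl15*, whose 93-base intron had 158 and 94 spliced and 331 and 291 retained. Over all 444 introns both paths were brighter in set B in 159 and both were dimmer in 89. The paths moved apart in 188, of which 93 had the spliced path brighter and 95 the retained path brighter. Over all 12556 events both paths were brighter in set B in 3639 and both dimmer in 3713. There the exclusion path alone was brighter in 2886 and the inclusion path alone in 2061.

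**Figure D2:**
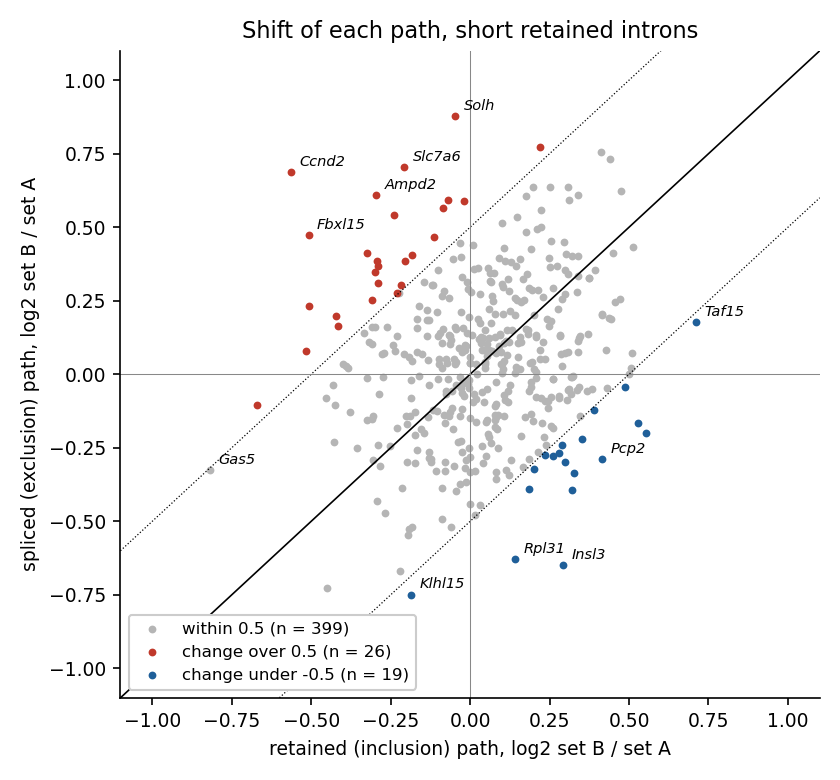
Log2 of set B over set A for the spliced path (vertical) against the retained path (horizontal) for the 444 short retained introns with values. The solid diagonal marks equal shifts and the dotted lines a change of 0.5 to either side. The 26 introns over the upper line (red) lie mostly in the upper left, the 19 under the lower line (blue) mostly in the lower right, and *Taf15* stands apart at the far right.

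The shift of the retained path went down with the length of the intron, and the spliced path showed less of this. For introns of up to 80 bases the retained path was brighter in set B in 61 of 83, with a median of 0.12 on the log2 scale. The medians were 0.10 at 81 to 100 bases (85 introns), 0.03 at 101 to 150 bases (134 introns) and -0.02 at 151 to 250 bases (142 introns). Longer retained introns lay lower still, at -0.06 for 251 to 500 bases, -0.04 for 501 to 1000 bases and -0.07 above that. The spliced path had medians between 0.02 and 0.11 in all of these classes. Over 1065 retained introns Spearman's rho with length was -0.26 for the retained path and -0.09 for the spliced path, given as a description, since all points share the same arrays.

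The same order appeared among brighter introns. With all 4 intensities at or above 160, the medians of the retained path were 0.12, 0.11, 0.01 and -0.03 in the 4 classes of short introns, and rho over 557 retained introns was -0.36. Among the 444 short introns alone rho was -0.22. Because both paths of the shortest introns shifted up, the median change stayed near 0 in every short class, and rho between length and change was 0.07. Counted past the fold were 7 of 83 introns (8.43%) of up to 80 bases and 16 of 85 (18.8%) of 81 to 100 bases. At 101 to 150 bases they were 9 of 134 (6.72%) and at 151 to 250 bases 13 of 142 (9.15%), against 7.24% of all events. Base composition of the probes, which can differ between short and long introns, was not examined here.

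**Figure D3:**
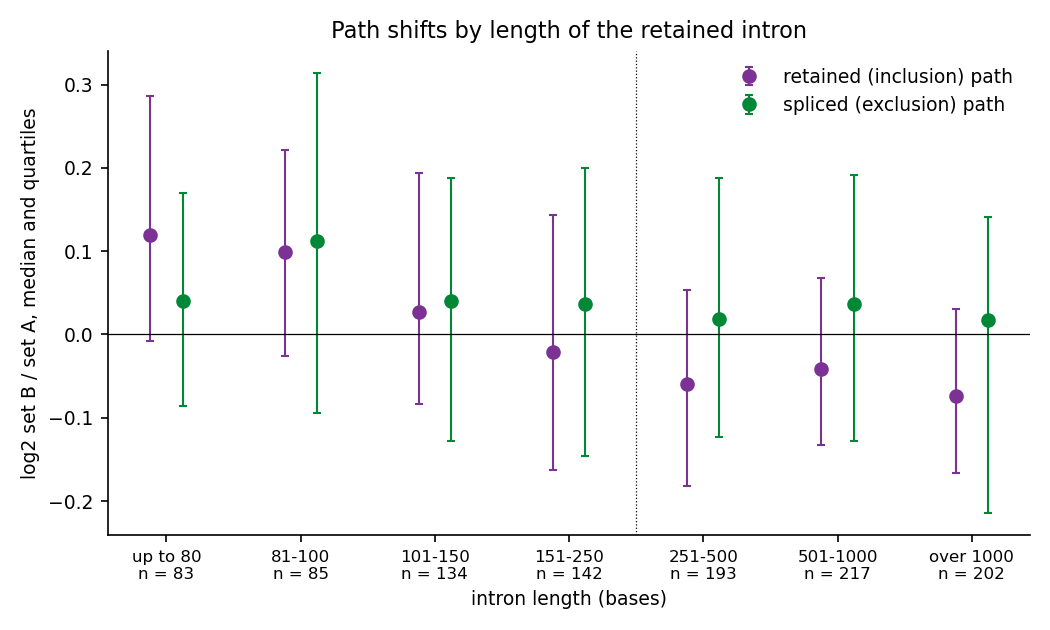
Median (points) and quartiles (bars) of log2 set B over set A for the retained path (purple) and the spliced path (green) by intron length in bases, with the number of introns under each class. The dotted line parts short from longer retained introns, and 9 longer ones by span with an intron of up to 250 bases are left out. The purple medians go from 0.12 at up to 80 bases to -0.07 above 1000 bases, while the green medians all lie above 0.

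At the limit of length itself, the last introns inside were those of *Fbxl6* (span 249 bases, change 0.68), *Fndc4* (249 bases, 0.01) and *Smpd2* (250 bases, -0.12). The first outside were those of *Centb1* (251 bases, 0.53), *Spryd3* (252 bases, 0.11) and *Rgl3* (253 bases, -0.10). The shortest were in *Gfra4*, a receptor subunit for GDNF-family ligands, at 51 bases, *Siglec5* at 60 bases and *Adck5* at 61 bases. Their changes were 0.07, -0.08 and 0.03. *Gfra4* was read mainly as retained, at 2981 and 3056 against 702 and 756 for the spliced path.

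The congenic interval of chromosome 19 was taken as 6.8 to 15 Mb in the listed positions, and 12 short introns of 5 genes lay in it. The study's text gives no coordinates, and its map has stretches between markers or heterozygous in some samples, so these bounds are approximate. In the interval the 2 genotypes also differ in DNA sequence, whichever set is the CAST group, so a change of splicing and a change of probe binding cannot be told apart. Past the fold were 2 of the 12 (16.7%), against 7.24% of all events. The 96-base intron of *0610038D11Rik* (chr19:6984345-6984443) had 205 and 241 spliced and 307 and 216 retained, a change of 0.74, while the neighbouring 76-base intron of the same gene read 5183 and 5188 spliced and 610 and 619 retained. The other was in *Snhg1*. Changes of the rest ran from -0.35 in *Cybasc3* to 0.27 in *Snhg1*, with *Ubxn1* at -0.08 and 0.09 and uc008gkm-1 at -0.19. Outside these bounds 43 of 432 short introns (9.95%) were past the fold.

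*Snhg1* and *Gas5* are noncoding genes whose introns hold small nucleolar RNAs (snoRNAs), which guide chemical modification of ribosomal RNA and are cut from the intron after splicing. By RefSeq, 25 short introns lay in 14 genes with a snoRNA inside their span, a grouping made after the values were seen. The strand of the snoRNA was not compared with that of the gene. Past the fold were 3 of the 25, all above 0, a share near that of the other short introns, 42 of 419. Whether the listed intron is the one that holds the snoRNA was not tested. The *Snhg1* intron of 173 bases (chr19:8799536-8799711) had a retained path of 407 in set A and 256 in set B, with 510 and 474 spliced, a change of 0.56. In *Hspa8*, the gene of the constitutive HSC70 chaperone, the 220-base intron had a change of 0.60 from a dim retained path of 83 and 58 beside 7226 and 7636 spliced. In *Rpl13*, another large-subunit protein gene, the 194-base intron (chr8:125626866-125627103) went from 619 to 464 when retained and from 1199 to 1345 when spliced, a change of 0.58.

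In all 3 the retained path was the one that moved more. The 191-base intron of *Gas5* had the lowest retained-path shift, -0.82, from 906 to 514, but its spliced path went down too, from 158 to 126, and its change of 0.49 did not pass the fold. The median retained-path shift was -0.13 over the 25 introns and 0.06 over the other 419. The 25 introns were longer, with a median of 191 bases against 112 bases, and the part of length in this shift was not tested. Other introns of the same genes went the other way, as in *Snhg1* (-0.34 at 238 bases and -0.22 at 226 bases) and *Gas5* (-0.28 at 121 bases).

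**Figure D4:**
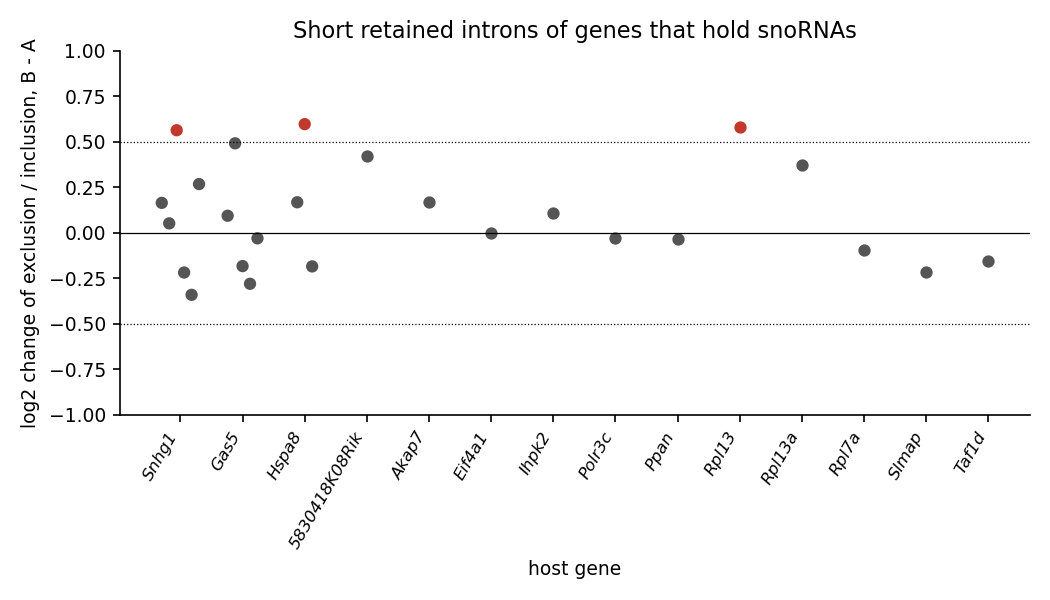
Change (log2 exclusion over inclusion, set B minus set A) of each of 25 short retained introns, by gene. The 14 genes have a snoRNA of either strand inside their span, and dotted lines lie at 0.5 and -0.5. The 3 introns in red, of *Snhg1*, *Hspa8* and *Rpl13*, pass the upper line and none passes the lower one, while the introns of *Snhg1*, *Gas5* and *Hspa8* lie on both sides of 0.

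Introns of one gene did not always share a direction. With 49.3% of all short introns above 0, mixed signs are frequent among any introns, and the number for introns of different genes was not computed. Of the 385 genes 41 held more than 1 short retained intron, 103 in all, and in 16 of the 40 genes with at least 2 values the changes had the same sign. No gene had more than 1 intron past the fold, and 8 had exactly 1. *Ankrd13b* had the widest range, from -0.27 to 0.74 over 4 introns. *Rgs11*, a gene of G-protein regulation, had 1 of 4 introns past the fold, at -0.57, beside -0.18, -0.15 and 0.02. Introns of a few genes did lie close together: the pair of *Gnptg* had changes of -0.53 and -0.44, the pair of *Cacnb3*, a calcium channel subunit gene, 0.39 and 0.47, and the 3 of *Fibp* -0.24, -0.22 and -0.14. In *Sat2*, which encodes a polyamine acetyltransferase, the changes were 0.56 and 0.10.

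By gene group, ubiquitin and proteasome genes had 15 short introns with values, of which 4 were past the fold, all above 0. They were *Fbxl15* at 0.98, *Fbxl6* at 0.68, *Rnf150* at 0.66 and *Fbxw10* at 0.55. The introns of *Fbxl15* and *Fbxw10* were dim, with 79 and 135 spliced and 122 and 142 retained in *Fbxw10*. The median of the 15 was 0.12, and over all 297 events of that list 19 (6.40%) were past the fold with a median of 0.02. *Psmd11* and *Psmc4*, which encode proteasome subunits, had -0.32 and -0.26. In the mitochondrial list all 5 introns were below 0, with only *Mrps2* past the fold at -0.54, and the others from -0.23 in *Mrpl4* to -0.06 in *Tomm6*. The median of the 5 was -0.18. Over all 120 events of that list 14 (11.7%) were past the fold, 52.5% were above 0 and the median was 0.02.

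Among genes of splicing and RNA processing none of 7 introns was past the fold and the median was 0.08, against 20 of 277 events (7.22%) and a median of 0.04 over the whole list. The largest absolute change there was 0.35 in *Rbm28* and the smallest -0.06 in *Tnrc4*, and *Sfrs1*, which encodes the splicing factor SRSF1, had 1950 and 2151 spliced and 636 and 596 retained, a change of 0.24. The translation list had 2 of 11 past the fold, *Rpl31* below and *Rpl13* above 0, and *Eif4a1*, a helicase of translation initiation, at 0.00 (2253 and 2423 spliced, 250 and 269 retained). Over all events of that list 15 of 143 (10.5%) were past the fold, and the median was -0.02 for the 11 introns and 0.01 for the list. Of 9 introns of synapse and ion channel genes *Clcn4-2* alone was past the fold, 7 were above 0 and the median was 0.13. Over all 335 events of that list 27 (8.06%) were past the fold, 60.3% were above 0 and the median was 0.05. Of 14 in the chromatin and transcription list, 2 passed, *Taf15* below 0 and *Zfp142* above 0 at 0.50, and the median was 0.05. Over all 431 events of that list 34 (7.89%) were past the fold and the median was 0.08. The lists were made by symbol, so that *Rps6kb2*, a kinase gene, counts in the translation list.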

How the data were processed

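Brain RNA of 6 mice was hybridised to Affymetrix splicing arrays, 1 array per animal. Per the file headers and the study's methods, the authors normalised the arrays with Affymetrix Power Tools and deposited, for each splicing event and path, a pooled intensity for each set of arrays. The separation scores and q-values beside them are the authors' own comparison and were not used. The table holds no value per animal, so no SD, test or p-value could be given.

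For each event, log2(exclusion/inclusion intensity) of set B minus that of set A was computed from the path that leaves the sequence out. An absolute change over 0.5 was called past the fold. A floor of 160, the 25th percentile of listed intensities, separated dim events. A name used for 2 event types (3 names) was counted as 2 events in comparisons. Named introns were the 10 highest and 10 lowest changes at or above the floor, up to 5 past-fold introns a direction below it, introns of the congenic interval, of the fixed gene lists and of genes with several such introns, and those nearest the length limit or shortest. The members and lists were chosen with earlier results of these data known. Gene lists were regular expressions on symbols. Symbols were matched to RefSeq (GRCm38.p6) for 367 of 385 genes, only for biotypes, snoRNA content and hairpins. The alternatives were an absolute log2 change over 1 and a slightly lower fold than the main one, 50 or 200 units added to each intensity, the floor, centring, the largest change over the paths of an event, 1 event per gene, and length limits of 200 and 300 bases. Python 3.11.15, pandas 2.3.3, numpy 2.4.6, scipy 1.17.1 and matplotlib 3.10.9 were used, and the change computation was tested on simulated intensities.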

Additional observations from a re-analysis of the deposited data

How the results depend on the processing

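No paired analysis was possible because the table holds pooled intensities of the 3 arrays of each set and no value per animal, although the labels pair the animals as littermates. For the same reason no array could be left out. The count of short retained introns past the fold, 45, fell to 1 at an absolute log2 change over 1, to 24 when all 4 intensities had to reach 160, to 25 with 50 units added to each intensity and to 9 with 200 units added. Under the same 4 settings the count of long retained introns past the fold went from 60 to 1, 23, 24 and 4. The count over all events went from 909 to 28, 386, 393 and 73, and to 554 with 1 event per gene. The median absolute change of the short introns went from 0.22 to 0.18 with 50 units and 0.13 with 200 units added. Fewer events enter when the floor applies, and a constant added to both paths pulls every ratio towards 0. The share of short introns with a change above 0 stayed between 45.5% and 50.3% under 8 alternatives. The floor and the limit to 1 intron per gene for the relation of length and retained-path shift were chosen after seeing the data. With the floor rho was -0.36, with 1 intron per gene -0.28, against -0.26. With 3 arrays a set and no spread given, the precision of these values is unknown.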
